A study of Homo sapiens with 24 samples.

Results

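The genes described here are 10 components of the selective autophagy machinery measured in the human liver cancer line HepG2: the cargo receptors SQSTM1 (p62), NBR1, TAX1BP1, OPTN and CALCOCO2 (NDP52), the ATG8 family genes MAP1LC3B, GABARAP, GABARAPL1 and GABARAPL2, and the phosphoinositide-binding protein gene WIPI1. They were taken by name and looked up by their NCBI Gene identifiers, with no threshold on measured values. All 10 were among the 11927 genes of the count table, each in 1 row, and 9 passed the filter on low counts that left 11152 genes for testing. GABARAP did not pass it.

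HepG2 cells were transduced with lentiCRISPRv2, which carries Cas9, a guide RNA and puromycin resistance. The guide was sgCtrl (sgAAVS168, directed at the AAVS1 safe-harbour site), sgKEAP1-1 or sgKEAP1-2, the last 2 directed at KEAP1. Each edited population was transfected either with a non-targeting siRNA (siNC) or with siRNAs against TFEB and TFE3 together (siTFEB/siTFE3), and RNA was taken 72 hours later. This gave 6 groups of 4 libraries, 24 in all, sequenced from the 3′ ends of transcripts. All groups therefore carried Cas9, a guide and a transfected siRNA, and no untransduced cells were included. The populations were pools of selected cells and not clones, and the RNA data do not show which share of cells carried an edit. The labels give the libraries of each group prefixes in the form of a day and month, without saying what they date or that the libraries came from separate cultures, so p-values measure the spread between these libraries, which may be technical.

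In selective autophagy a receptor binds both its cargo, often marked with ubiquitin, and an ATG8 protein that is anchored in the membrane of the growing autophagosome. ATG8 proteins form the LC3 and the GABARAP branches, and WIPI1 reads phosphatidylinositol 3-phosphate at the site where the autophagosome forms. SQSTM1 also binds KEAP1, the adaptor that marks the transcription factor NRF2 for degradation, and SQSTM1 is itself a known NRF2 target. TFEB and TFE3 are MiT/TFE transcription factors that act on lysosomal and autophagy genes, SQSTM1 and WIPI1 among them.

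Because KEAP1 restrains NRF2, the sequences upstream of these genes were searched for the core of the antioxidant response element that NRF2 binds, TGACNNNGC, on both strands. The RefSeq promoters (assembly GRCh38.p14, 250 bases before to 50 after each annotated start) gave 15 windows for the 10 genes. The core was found in 2 of the 15 windows, in 2 genes, against 13.35% of 35116 promoters of the same length. The MiT/TFE-bound CLEAR core TCACGTGA, present in 0.98% of all promoters, and the shorter E-box CACGTG it contains, present in 7.26%, were found in 0 of the 15. The 250 bases before the start are shown for both genes with the antioxidant response element core and for the 3 genes that rose with both KEAP1 guides, all on the plus strand; capitals mark the core. For MAP1LC3B (chr16:87392086-87392335) the core began 46 bases before the start, and for CALCOCO2 (chr17:48830785-48831034) it lay on the minus strand, 129 bases before the start. The other windows are those of GABARAPL1 (chr12:10212627-10212876), the last of 3 annotated starts of SQSTM1 (chr5:179820655-179820904) and the second start of TAX1BP1 (chr7:27739912-27740161).
MAP1LC3B: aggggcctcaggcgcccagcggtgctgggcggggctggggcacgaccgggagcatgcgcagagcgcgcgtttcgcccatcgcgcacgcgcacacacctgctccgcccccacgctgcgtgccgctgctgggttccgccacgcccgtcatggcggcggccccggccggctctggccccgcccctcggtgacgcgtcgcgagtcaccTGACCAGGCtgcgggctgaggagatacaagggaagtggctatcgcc
CALCOCO2: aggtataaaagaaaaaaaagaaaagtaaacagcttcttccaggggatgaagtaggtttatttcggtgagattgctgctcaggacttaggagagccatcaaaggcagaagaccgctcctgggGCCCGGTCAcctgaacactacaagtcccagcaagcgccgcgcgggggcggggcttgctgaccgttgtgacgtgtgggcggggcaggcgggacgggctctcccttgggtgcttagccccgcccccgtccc
SQSTM1: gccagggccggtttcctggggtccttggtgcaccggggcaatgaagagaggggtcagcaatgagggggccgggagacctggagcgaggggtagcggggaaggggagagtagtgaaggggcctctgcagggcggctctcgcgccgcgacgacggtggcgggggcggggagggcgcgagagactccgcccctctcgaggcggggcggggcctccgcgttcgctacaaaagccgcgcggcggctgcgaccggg
GABARAPL1: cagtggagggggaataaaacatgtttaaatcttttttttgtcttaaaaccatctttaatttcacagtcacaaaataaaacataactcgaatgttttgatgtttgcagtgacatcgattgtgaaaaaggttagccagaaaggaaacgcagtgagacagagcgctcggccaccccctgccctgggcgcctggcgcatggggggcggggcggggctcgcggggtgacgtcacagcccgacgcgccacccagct
TAX1BP1: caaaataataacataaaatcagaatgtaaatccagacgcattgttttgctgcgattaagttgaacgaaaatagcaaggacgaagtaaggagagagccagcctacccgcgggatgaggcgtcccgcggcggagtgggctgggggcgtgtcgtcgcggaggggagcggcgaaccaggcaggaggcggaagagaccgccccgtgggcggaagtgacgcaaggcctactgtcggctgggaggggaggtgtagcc
A match is a description of the letters, and the absence of one says only that the core is not within these windows. Where the genes with and without the core stood in the measurements is given with each gene.

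Library totals ranged from 3527000 to 4600951 reads. The edited gene was checked first: KEAP1 transcript was lower in all 4 sgKEAP1-1 libraries than in all sgCtrl libraries under siNC (log2 fold change -0.66, adjusted p = 1.02e-04), whereas for sgKEAP1-2 the value was -0.14 with overlapping libraries (adjusted p = 0.448). An edit need not lower the transcript, and the NRF2 target NQO1, a quinone reductase, rose with both guides by 1.19 and 1.36. On knockdown, averaged over the 3 guides, TFEB fell by 1.92 and TFE3 by 1.67 on the log2 scale. They were left at 0.26 and 0.32 of their siNC levels. In sgCtrl cells alone, every knocked-down library was below every siNC library for TFEB, which was still not called (-1.96, adjusted p = 0.0858). TFE3 was called there (-1.57, adjusted p = 0.0237). A missed call in that background thus does not show an unchanged level. With KEAP1 loss, averaged over guides and siRNAs, TFE3 transcript rose (0.52, adjusted p = 0.0134) and TFEB was not called (0.12, adjusted p = 0.734). All 8 of 8 hepatocyte and HepG2 markers were present. Their summed level ran from 25312 to 34209 CPM (reads scaled to a common library size) in sgCtrl cells under siNC and from 14974 to 17360 CPM in KEAP1-edited cells under siNC. In bulk RNA, fewer cells of a kind and less RNA per cell cannot be told apart, and the part of this shift in the results below was not tested. On the second principal component 2 libraries stood apart, sgKEAP1-1 replicate 1 under siNC and sgKEAP1-2 replicate 1 under siTFEB/siTFE3. In both sgCtrl groups replicate 1 had the lowest CPM for SQSTM1, NBR1, TAX1BP1, OPTN, CALCOCO2, MAP1LC3B, GABARAPL1 and WIPI1. These libraries are part of the baseline of the KEAP1 comparisons, and why they read low was not tested.

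With KEAP1 loss, the receptors SQSTM1 and TAX1BP1 and the ATG8 gene GABARAPL1 rose with both guides and under both siRNAs. Averaged over these 4 comparisons, SQSTM1 was 2.42-fold, GABARAPL1 2.41-fold and TAX1BP1 1.79-fold the sgCtrl level. Under siNC, 3 of the 9 genes tested rose with sgKEAP1-1, where 10.9% of all genes tested were called in either direction, and 4 rose with sgKEAP1-2, where 14.7% were called. Under siTFEB/siTFE3, 3 rose with sgKEAP1-1 (background 10.5%) and 3 with sgKEAP1-2 (background 20.2%). In the comparison averaged over guides and siRNAs 4 rose, with WIPI1 as the fourth, and the background was 30.9%. None of the 9 was called lower with KEAP1 loss in any of these 5 comparisons, although OPTN had an unadjusted p under the threshold on average. The median log2 fold change of the 9 was 0.11 with sgKEAP1-1 and 0.19 with sgKEAP1-2 under siNC, beside -0.02 and -0.0032 over all genes. The guides were set against the same sgCtrl libraries within each siRNA, so their comparisons are not independent. A call here is a Benjamini-Hochberg adjusted p under 0.05 over all 11152 genes.

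**Figure D1:**
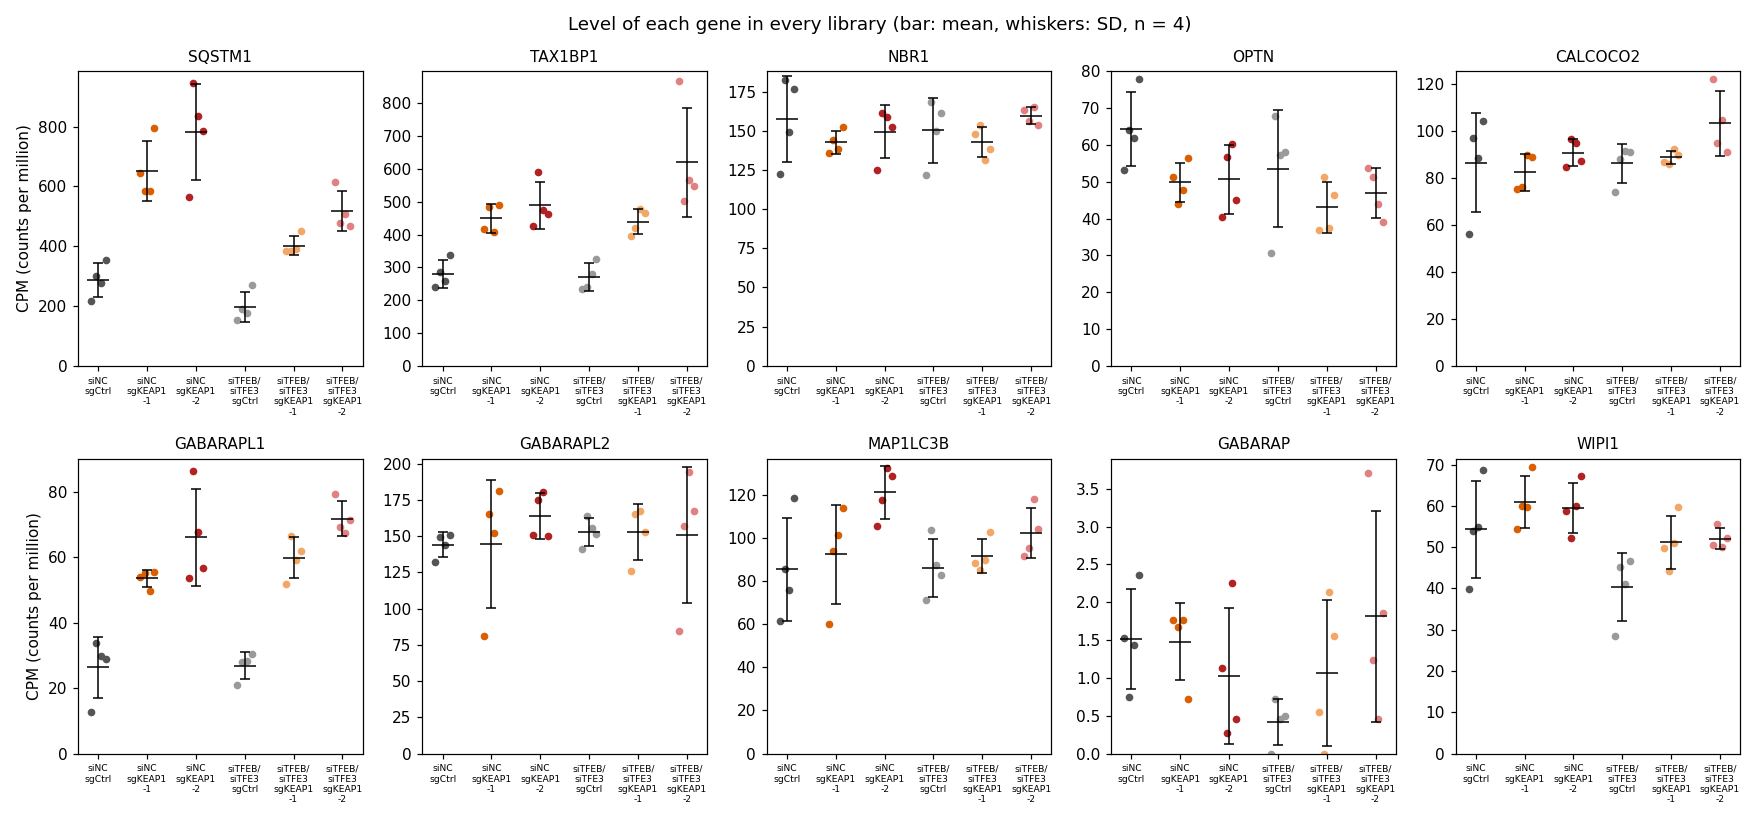
Level in CPM (y axis, from 0) of each of the 10 genes in every library (points), by siRNA and guide (x axis), with the mean and SD of the 4 libraries. SQSTM1, TAX1BP1 and GABARAPL1 sat above their sgCtrl libraries in every KEAP1-edited group, and GABARAP stayed at or below 3.71 CPM.

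SQSTM1 encodes the receptor p62, which gathers ubiquitinated proteins into condensates and binds KEAP1. In sgCtrl cells under siNC its 4 libraries read 217, 301, 277 and 353 CPM. The sgKEAP1-1 libraries read 644, 584, 585 and 796 CPM, and the sgKEAP1-2 libraries 564, 947, 835 and 784 CPM. Every KEAP1-edited library was thus above every sgCtrl library. On the log2 scale sgKEAP1-1 raised SQSTM1 by 1.19 (SE 0.16, adjusted p = 8.71e-06), and sgKEAP1-2 raised it by 1.44 (SE 0.16, adjusted p = 3.18e-07).

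The same order held after knockdown. In sgCtrl cells under siTFEB/siTFE3, SQSTM1 read 154, 190, 177 and 269 CPM. In sgKEAP1-1 cells it read 383, 384, 391 and 450 CPM and in sgKEAP1-2 cells 615, 479, 508 and 468 CPM. The groups again did not overlap. SQSTM1 was higher by 1.05 (SE 0.17, adjusted p = 7.51e-05) with sgKEAP1-1, and with sgKEAP1-2 by 1.41 (SE 0.17, adjusted p = 5.14e-07). By group mean, SQSTM1 was lowest in sgCtrl cells under siTFEB/siTFE3 (198 ± 50.1 CPM, SD, 4 libraries), followed by sgCtrl under siNC (287 ± 56.5), knocked-down sgKEAP1-1 (402 ± 32.2) and sgKEAP1-2 (518 ± 67.2), and then sgKEAP1-1 (652 ± 99.8) and sgKEAP1-2 (782 ± 161) under siNC. The libraries of the 2 sgCtrl groups overlapped.

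SQSTM1 was the only 1 of the 9 genes tested that was called on TFEB and TFE3 knockdown. Averaged over the 3 guides it fell by 0.61 on the log2 scale (SE 0.09, adjusted p = 3.31e-04), where 2.33% of all genes were called. Within single backgrounds the value was -0.55 in sgCtrl cells (95% interval -0.90 to -0.21, adjusted p = 0.757). It was -0.69 in sgKEAP1-1 cells (95% interval -1.02 to -0.36, adjusted p = 0.0966). In sgKEAP1-2 cells it was -0.58 (95% interval -0.91 to -0.26, adjusted p = 0.121). None of these passed after adjustment, although each interval lay below 0. All 4 knocked-down sgKEAP1-1 libraries were below all 4 under siNC, while the libraries overlapped in the other 2 backgrounds. In these backgrounds 0 of the 9 genes passed by limma-voom, where 0.0179%, 0.0897% and 0.359% of all genes did. Before adjustment 2, 1 and 2 of 9 were under 0.05. SQSTM1 was among them in each background, with WIPI1 (lower) in sgCtrl cells and TAX1BP1 (higher) in sgKEAP1-2 cells. After adjustment DESeq2 called 0, 1 and 1, in both cases SQSTM1. A limma-voom fit with a block for the replicate number called SQSTM1 in sgKEAP1-1 cells (-0.69, adjusted p = 0.0283) and not in the other 2 backgrounds.

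The knockdown did not remove the difference between KEAP1-edited and sgCtrl cells in SQSTM1. The test of whether it changed the log2 size of this difference was not passed. The interaction, the KEAP1 effect under siTFEB/siTFE3 minus that under siNC averaged over both guides, was -0.08 on the log2 scale (95% interval -0.50 to 0.33). This interval allows a smaller as well as a larger KEAP1 effect after knockdown. In CPM the SQSTM1 difference from sgCtrl was 365 (SE 57.4) with sgKEAP1-1 and 495 (SE 85.2) with sgKEAP1-2 under siNC. Under siTFEB/siTFE3 it was 205 (SE 29.8) and 320 (SE 41.9). The change of this difference in CPM was not tested. For each of the 9 genes the interaction missed the threshold for sgKEAP1-1, for sgKEAP1-2 and for their average, and over all genes 0% passed in each. At an unadjusted p, 0 of the 9 genes and 304, 454 and 349 of all genes were under 0.05, and edgeR and DESeq2 also called 0 genes.

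The exons of SQSTM1 overlap those of MGAT4B and MRNIP on the opposite strand, and the strand setting of the read counting is not given in the sources used here. MGAT4B, which encodes a Golgi glycosyltransferase, rose by 0.38 with KEAP1 loss (adjusted p = 3.13e-04) and fell by 0.32 on knockdown (adjusted p = 0.0114). MRNIP, which encodes a DNA repair protein, had 20 to 66 reads per library and a KEAP1 value of -0.02 (adjusted p = 0.928). Whether reads were shared between these genes was not tested.

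TAX1BP1 encodes a receptor that acts in the autophagy of protein aggregates and damaged mitochondria. Its sgCtrl libraries under siNC read 241, 285, 258 and 339 CPM. With sgKEAP1-1 it read 416, 484, 408 and 491 CPM and with sgKEAP1-2 426, 592, 475 and 464 CPM. All 8 KEAP1-edited libraries were above the highest sgCtrl library, and the log2 differences were 0.68 (SE 0.15, adjusted p = 0.00212) for the first guide and 0.80 (SE 0.15, adjusted p = 3.00e-04) for the second. Under siTFEB/siTFE3 the sgCtrl libraries read 235, 241, 280 and 327 CPM. The sgKEAP1-1 libraries read 395, 422, 478 and 465 CPM and the sgKEAP1-2 libraries 868, 503, 566 and 548 CPM. These groups did not overlap with sgCtrl either, with log2 differences of 0.71 (SE 0.15, adjusted p = 0.00150) for the first guide and 1.17 (SE 0.14, adjusted p = 1.17e-06) for the second. The reading of 868 CPM belongs to a library that stands apart on the second principal component. On knockdown, averaged over the guides, TAX1BP1 gave 0.08 (95% interval -0.09 to 0.25). By background the value was -0.05 in sgCtrl and -0.03 in sgKEAP1-1 cells. In sgKEAP1-2 cells it was 0.32 (95% interval 0.03 to 0.61, adjusted p = 0.430).

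NBR1, OPTN and CALCOCO2, the remaining receptors, were not called in any of the 13 comparisons as fitted by limma-voom on all libraries. NBR1, which like p62 collects ubiquitinated cargo, ranged over its 24 libraries from 122 to 182 CPM, and its group means lay between 143 and 160 CPM. Its averaged KEAP1 value was -0.04 (95% interval -0.19 to 0.11). CALCOCO2, a receptor for bacteria and mitochondria whose upstream window holds the antioxidant response element core, ranged from 56.1 to 122 CPM and gave 0.09 (95% interval -0.08 to 0.27). OPTN, a receptor that acts with the kinase TBK1, read 53.3, 64.1, 62.0 and 77.8 CPM in sgCtrl cells under siNC. It read 51.4, 43.9, 47.8 and 56.4 CPM with sgKEAP1-1 and 40.4, 56.8, 60.3 and 45.1 CPM with sgKEAP1-2. The averaged value for OPTN was -0.28 (95% interval -0.51 to -0.05, adjusted p = 0.0600), which missed the threshold. A p that misses the threshold does not show that the levels were alike. It was called lower in 6 of 8 alternative settings, DESeq2 among them (-0.30, adjusted p = 0.0312), and in 5 of 24 fits that each left out 1 library. Without sgCtrl replicate 1 under siTFEB/siTFE3, OPTN was also called lower with sgKEAP1-1 under siTFEB/siTFE3 (-0.50, adjusted p = 0.0469).

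The makeup of the receptor transcripts differed between groups. SQSTM1 supplied 32.7% ± 0.950 (SD, 4 libraries) of the reads of the 5 receptor genes in sgCtrl cells under siNC, 47.2% ± 2.82 with sgKEAP1-1 and 49.8% ± 2.87 with sgKEAP1-2. Under siTFEB/siTFE3 the shares were 25.8% ± 2.69, 36.0% ± 1.47 and 35.9% ± 1.54. The lowest KEAP1-edited library under siNC, at 43.9%, lay above the highest sgCtrl library, at 33.6%. Each transcript is read from its 3′ end, so these are shares of reads and were not divided by length.

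GABARAPL1 encodes an ATG8 protein of the GABARAP branch. Its sgCtrl libraries under siNC read 12.7, 33.9, 29.9 and 28.8 CPM. The sgKEAP1-1 libraries read 53.9, 55.0, 49.5 and 55.4 CPM and the sgKEAP1-2 libraries 53.7, 86.4, 67.6 and 56.6 CPM. The lowest KEAP1-edited library, at 49.5 CPM, was above the highest sgCtrl library, and GABARAPL1 rose by 1.11 (SE 0.20, adjusted p = 4.15e-04) with the first guide, by 1.39 (SE 0.20, adjusted p = 1.36e-05) with the second. Under siTFEB/siTFE3 the sgCtrl libraries read 20.8, 28.0, 28.3 and 30.5 CPM. With sgKEAP1-1 it read 51.6, 66.5, 59.1 and 62.0 CPM and with sgKEAP1-2 79.2, 69.1, 67.2 and 71.3 CPM. There was again no overlap, and the rise was 1.16 (SE 0.20, adjusted p = 1.80e-04) with the first guide, 1.41 (SE 0.19, adjusted p = 5.27e-06) with the second. GABARAPL1 gave 0.14 on knockdown averaged over the guides (95% interval -0.09 to 0.36, adjusted p = 0.668). Its averaged KEAP1 value of 1.27 equals that of SQSTM1 to 2 decimals, whereas the averaged knockdown values were 0.14 and -0.61. The difference between these 2 genes in knockdown response was not itself tested.

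MAP1LC3B encodes LC3B, the ATG8 protein most used as a marker of autophagosomes, and is the second gene whose upstream window holds the antioxidant response element core. In sgCtrl cells under siNC it read 61.7, 85.8, 75.8 and 118 CPM. The sgKEAP1-1 libraries read 60.2, 94.2, 102 and 114 CPM, and the sgKEAP1-2 libraries 106, 118, 132 and 129 CPM. MAP1LC3B rose with sgKEAP1-2 (0.54, SE 0.17, adjusted p = 0.0324) although the libraries overlapped, and the value with sgKEAP1-1 was 0.11 (95% interval -0.25 to 0.47). The call did not survive the removal of single libraries: without sgCtrl replicate 1 under siNC the value was 0.39 (adjusted p = 0.155), and it was also lost without sgCtrl replicate 2 or 3 or without sgKEAP1-2 replicate 2, 3 or 4 (adjusted p from 0.0552 to 0.0954). Under siTFEB/siTFE3 the values were 0.10 and 0.25, neither of which passed. Averaged over guides and siRNAs, MAP1LC3B gave 0.25 (95% interval 0.03 to 0.47, adjusted p = 0.0756), which missed the threshold. It passed with the replicate block (adjusted p = 0.0246), with quality weights (0.0153) and without the 2 libraries that stand apart (0.00639). It did not pass with edgeR's test, DESeq2 or the other settings on all libraries. The exons of MAP1LC3B overlap FBXO31, a ubiquitin ligase gene on the opposite strand, which fell by 0.36 with KEAP1 loss (adjusted p = 6.31e-04).

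GABARAPL2, the other GABARAP-branch gene tested, was not called in any comparison. Its averaged KEAP1 value was 0.01 (95% interval -0.24 to 0.26). It read 81.1 and 84.5 CPM in 2 libraries and ranged from 126 to 194 CPM in all others. The 2 are the libraries that stand apart on the second principal component. Without them the value for GABARAPL2 with sgKEAP1-1 under siNC was 0.21 in place of -0.05, and with sgKEAP1-2 under siTFEB/siTFE3 0.17 in place of -0.07, again with no call. GABARAP itself had 0 to 12 reads per library, the 0 occurring in 1 sgCtrl and 1 sgKEAP1-1 library under siTFEB/siTFE3, so its level could not be compared at this depth. Its exons overlap another annotated gene on the same strand, and whether reads were lost to it was not tested. MAP1LC3A, MAP1LC3B2, MAP1LC3C and GABARAPL3 were looked up and were absent from the count table, so they do not enter the ATG8 shares. GABARAPL1 supplied 10.0% ± 2.92 of the reads of the 4 ATG8 genes in sgCtrl cells under siNC, 19.2% ± 5.49 with sgKEAP1-1 and 18.6% ± 2.79 with sgKEAP1-2. Under siTFEB/siTFE3 its shares were 10.1% ± 1.13, 19.6% ± 1.01 and 22.6% ± 5.56. The highest shares, 27.4% and 30.6%, were those of the 2 libraries with low GABARAPL2.

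**Figure D2:**
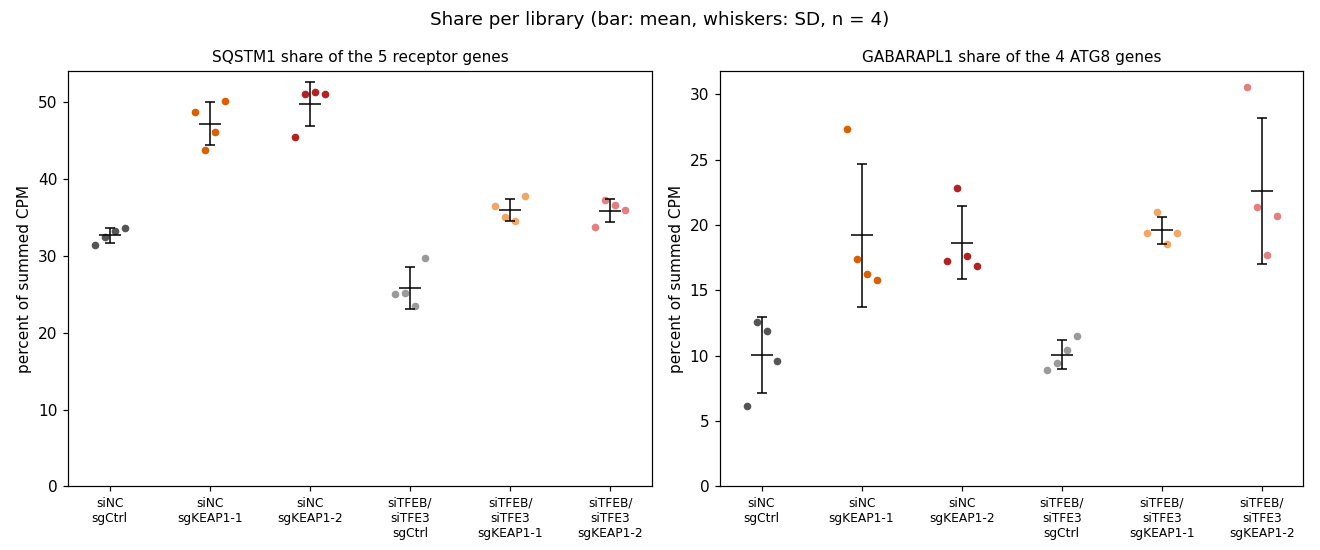
Share of the summed CPM (y axis, percent, from 0) that SQSTM1 took among the 5 receptor genes (left) and GABARAPL1 among the 4 ATG8 genes (right), per library, with mean and SD by siRNA and guide (x axis). The SQSTM1 share was 32.7% in sgCtrl cells under siNC and 25.8% under siTFEB/siTFE3, and the mean of both shares was higher in every KEAP1-edited group than in the sgCtrl group under the same siRNA.

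WIPI1 gave values of opposite sign for KEAP1 loss and for knockdown, of which only the first passed after adjustment. On average the unadjusted limma-voom p was 0.00749 for KEAP1 loss, where 30.9% of all genes were called. For knockdown it was lower, 0.00253, where 2.33% were called. The sgCtrl libraries of WIPI1 under siNC read 39.9, 53.9, 54.8 and 68.6 CPM, and those under siTFEB/siTFE3 28.4, 45.1, 41.0 and 46.6 CPM. With sgKEAP1-1 its mean was 60.9 ± 6.23 CPM under siNC and 51.2 ± 6.44 under siTFEB/siTFE3, and with sgKEAP1-2 59.5 ± 6.14 and 52.0 ± 2.55 CPM. The libraries of most of these groups overlapped. WIPI1 rose with KEAP1 loss averaged over guides and siRNAs (0.27, SE 0.09, adjusted p = 0.0278) and passed in none of the 4 separate comparisons. The averaged call was lost without sgCtrl replicate 1 under siNC (0.20, adjusted p = 0.0925) or under siTFEB/siTFE3 (0.20, adjusted p = 0.0994). The averaged knockdown value was -0.29 (95% interval -0.47 to -0.11, adjusted p = 0.0768). This missed the threshold and passed when DESeq2 replaced limma-voom (adjusted p = 0.0393) and in other settings given with the alternatives. Among these was limma-voom with a block for the replicate number (-0.29, adjusted p = 0.0214). That fit also called WIPI1 higher with sgKEAP1-2 under siTFEB/siTFE3 (0.37, adjusted p = 0.0394).

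**Figure D3:**
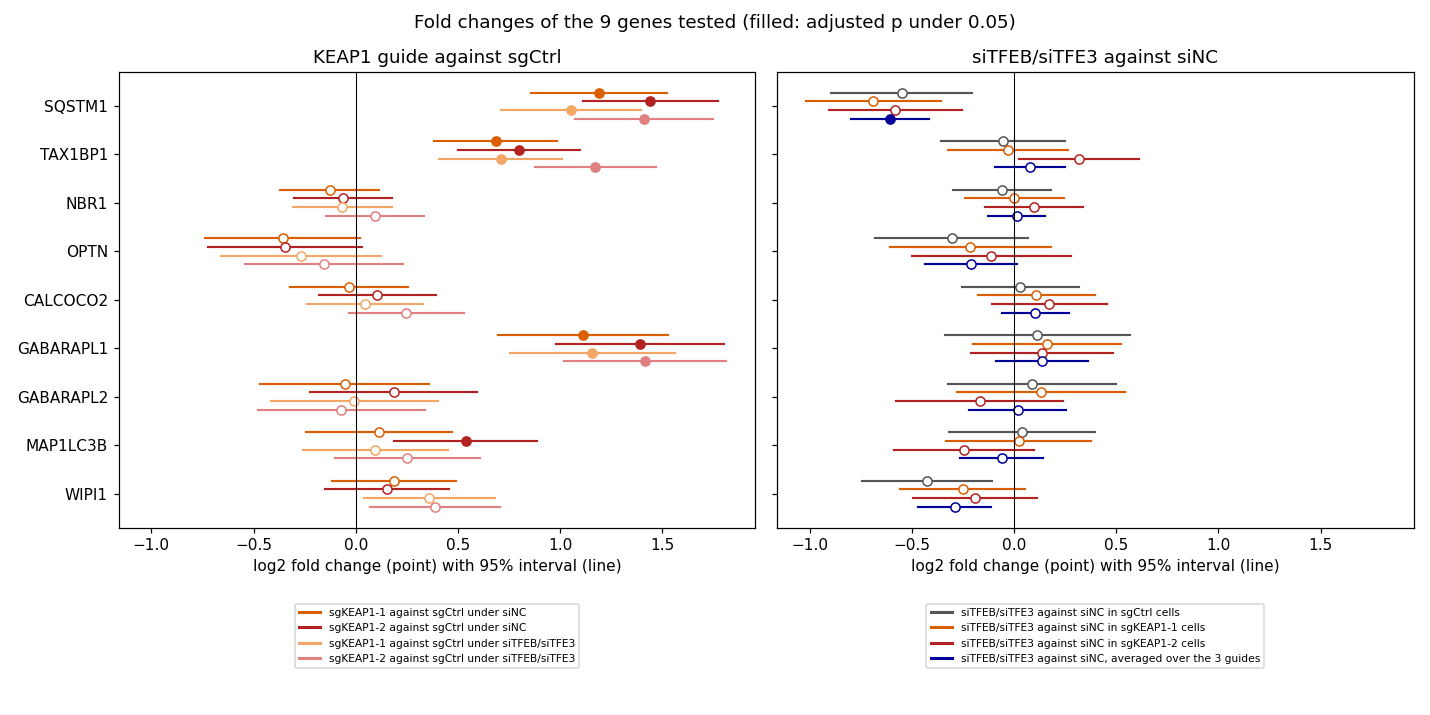
Log2 fold change (x axis, points) with 95% interval (lines) of the 9 genes tested (y axis) for the 4 KEAP1 comparisons (left) and for the knockdown in each background and on average (right), with filled points for adjusted p under 0.05. SQSTM1, TAX1BP1 and GABARAPL1 were filled in all 4 KEAP1 comparisons, and the averaged SQSTM1 value of -0.61 was the 1 filled point on the right.

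Between the guides themselves no member was called. Averaged over both siRNAs, sgKEAP1-2 minus sgKEAP1-1 gave 0.30 for SQSTM1 (95% interval 0.07 to 0.53, adjusted p = 0.401), 0.29 for TAX1BP1 (0.08 to 0.50, adjusted p = 0.362) and 0.27 for GABARAPL1 (0.02 to 0.52, adjusted p = 0.542). MAP1LC3B gave 0.29 (0.04 to 0.54, adjusted p = 0.477). These 4 genes were under 0.05 before adjustment and 0 of 9 after it, by limma-voom and also by DESeq2, where 0.117% of all genes were called by limma-voom. KEAP1 transcript itself differed between the guides (0.50, adjusted p = 0.00145).

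Counts in the rest of the autophagy machinery are read against the shares called over all genes, 10.9% with sgKEAP1-1 and 14.7% with sgKEAP1-2 under siNC. Of 16 other receptors tested, 1 rose with sgKEAP1-1 and 3 with sgKEAP1-2 under siNC, and none fell. BNIP3, a mitophagy receptor of the outer mitochondrial membrane, was the one called with both guides (0.42, adjusted p = 0.0433, and 0.53, adjusted p = 0.00798). Of 21 initiation and nucleation genes 1 and 2 rose, and AMBRA1, a regulator of the Beclin 1 complex, rose with both guides (0.62, adjusted p = 0.0115, and 0.52, adjusted p = 0.0281). Of 10 conjugation genes 0 and 1 rose, of 13 fusion genes 0 and 0, and of 7 kinases that act on receptors 0 and 1. The list medians under siNC lay between -0.04 and 0.23 with sgKEAP1-1 and between 0.04 and 0.18 with sgKEAP1-2. In the comparison averaged over guides and siRNAs, with a background of 30.9%, 4 receptors rose and 1 fell, 6 initiation genes rose, 2 conjugation genes rose and 1 fell, 1 fusion gene rose and 0 kinases were called. The genes that fell were NCOA4, a receptor for ferritin (-0.33, adjusted p = 4.07e-05), and ATG4B, an ATG8-processing protease (-0.30, adjusted p = 0.00400), both named after their values were seen. Under siTFEB/siTFE3 with sgKEAP1-2, with a background of 20.2%, 2 receptors, 6 initiation genes and 2 conjugation genes rose, and 1 gene of each of these lists fell. With sgKEAP1-1, with a background of 10.5%, 1 receptor and 1 initiation gene rose, and 1 receptor and 1 conjugation gene fell. Among 9 NRF2 targets taken as a check 7 and 8 rose, with medians of 1.19 and 1.36.

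On knockdown averaged over the guides, 1 of the 16 receptors, 0 of the 21 initiation genes, 0 of the 10 conjugation genes, 1 of the 13 fusion genes and 0 of the 7 kinases fell, and none rose, beside 2.33% of all genes called in either direction. They were TOLLIP (-0.24, adjusted p = 0.0360), an adaptor with a ubiquitin-binding domain, and RAB7A (-0.23, adjusted p = 0.0239), the late endosomal GTPase. Both were named after their values were seen. Of 9 MiT/TFE targets taken as a check, which include SQSTM1 and WIPI1, 4 fell: FLCN, FNIP1, FNIP2 and SQSTM1. FNIP1 falls outside the naming rule and was named after its values were seen. FLCN encodes folliculin, a regulator of nutrient signalling at the lysosome, and fell by 0.90 on average (adjusted p = 7.06e-06) and by 1.27 in sgKEAP1-2 cells (adjusted p = 3.49e-04). FNIP2, which encodes a folliculin partner, fell with both KEAP1 guides under siNC by 0.60 (adjusted p = 4.32e-04) and 0.72 (adjusted p = 3.58e-05), while SQSTM1 rose with both. With sgKEAP1-1 no other of the 9 was called, 5 were positive and their median was 0.03 (background 10.9%). With sgKEAP1-2 FLCN and GPNMB also rose, 8 were positive and the median was 0.33 (background 14.7%). The medians over all genes were -0.02 and -0.0032. GPNMB had 1 to 23 reads per library and was named after its values were seen.

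**Figure D4:**
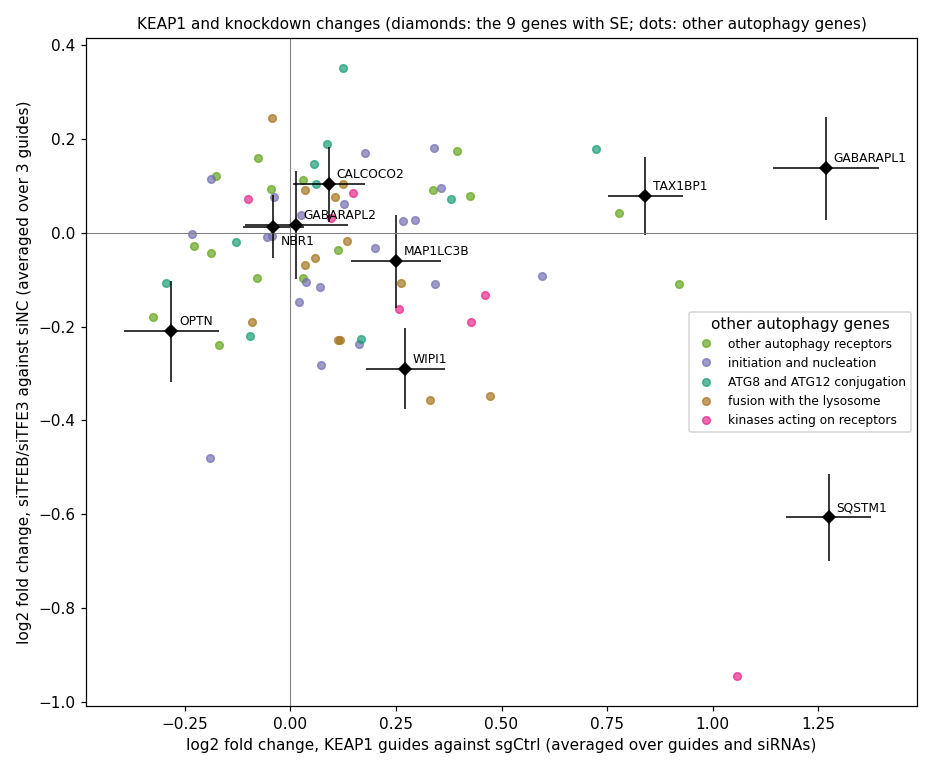
Averaged log2 fold change with KEAP1 loss (x axis) against that on TFEB and TFE3 knockdown (y axis) for the 9 genes tested (diamonds, with SE) and for the other autophagy genes by list (dots). SQSTM1 lay at 1.27 and -0.61, whereas GABARAPL1 and TAX1BP1 lay to the right at 0.14 and 0.08 on the knockdown axis.

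For the 3 genes that rose with both guides, the genes whose log2 CPM followed theirs most closely were sought among 10537 genes over the 24 libraries. SQSTM1 was followed most closely by MMP2 (Pearson r = 0.94), STX3 (0.94) and IFITM3 (0.93). TAX1BP1 was followed by DSTN (0.97), SH3GLB1 (0.96) and MAP1B (0.95), and GABARAPL1 by CAP2 (0.95) and DNAJB4 (0.95). All libraries share the 6 groups, so much of each r is the difference between groups. With the group means removed the values ran from 0.60 to 0.86. These genes were picked for a high r over the same libraries, and the corresponding values of other genes were not compared. On knockdown averaged over the guides STX3, a membrane fusion protein gene, fell by 0.49 (adjusted p = 0.0165), while MMP2 (-0.89, adjusted p = 0.0826) and IFITM3 (-0.19, adjusted p = 0.170) did not pass.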

How the data were processed

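QuantSeq 3′ libraries of 24 HepG2 samples were analysed. The authors deposited a table of raw read counts per gene; their processing notes name FastQC 0.72, cutadapt 1.16, STAR 2.7.5b, featureCounts 1.6.3 and limma 3.40.6. The labels name build hg38 and the methods hg19, the table holds no coordinates, and positions printed here are RefSeq GRCh38.p14. Rows without a gene identifier (1414 of 13446, 1.35 to 2.57% of reads) were left out, and identifiers with identical counts (160) were merged to single features. Samples were grouped by their labels. CPM were scaled by TMM. All 24 libraries were fitted by limma-voom in R 4.3.3 (packages limma 3.58.1 and edgeR 4.0.16) after filterByExpr, as the study had used limma, with 1 coefficient per group, 13 contrasts and Benjamini-Hochberg adjustment over 11152 genes. The pipeline was tested on simulated data. Alternatives were edgeR's quasi-likelihood test, DESeq2 1.42.0, other scalings, no filter, a replicate block, quality weights, pairwise fits and left-out libraries. The members and lists were chosen with earlier results of these data known. Besides the 10 members, genes were named if called in 1 direction with both KEAP1 guides under siNC or on knockdown in any background, at most 4 per list, with the 3 genes most alike to each member called with both guides, of which 1 is not reported here.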

Additional observations from a re-analysis of the deposited data

Results flagged for a closer look

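Among 60 sets of 4 libraries (10 genes in 6 groups), 2 held a library far from the other 3 by Dixon's criterion, and chance alone gives about 1 in 20. SQSTM1 in sgKEAP1-1 cells under siTFEB/siTFE3 read 450 CPM in replicate 4, where the others ran from 383 to 391 CPM. GABARAP in sgKEAP1-1 cells under siNC read 0.723 CPM in replicate 4, where the others ran from 1.67 to 1.76 CPM, a matter of 3 reads against 6 or 7. No interaction between guide and siRNA was called for any of the 9 genes tested.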

How the results depend on the processing

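The calls of SQSTM1, TAX1BP1 and GABARAPL1 in the 5 KEAP1 comparisons held in all alternatives run, and no called fold change turned its direction. Knockdown calls were less stable. Members called on knockdown numbered 1 in place of 0 in sgKEAP1-1 cells with DESeq2, the replicate block or quality weights, 1 in place of 0 in sgKEAP1-2 cells with DESeq2, quality weights or without the 2 libraries that stand apart, and 2 in place of 1 on average with DESeq2, the replicate block or quality weights. The added gene was SQSTM1 in single backgrounds and WIPI1 on average. The averaged KEAP1 comparison gave 4 to 6 members. OPTN was added, as lower, in 6 of 8 settings (adjusted p down to 0.00451), and MAP1LC3B, as higher, in 3 of 8 (adjusted p down to 0.00639). With single libraries left out, the counts were 3 to 3 and 3 to 4 members for sgKEAP1-1 and sgKEAP1-2 under siNC, 3 to 4 and 3 to 3 under siTFEB/siTFE3, 4 to 5 in the averaged KEAP1 comparison, 0 to 0, 0 to 0 and 0 to 1 for the knockdown in sgCtrl, sgKEAP1-1 and sgKEAP1-2 cells, and 1 to 2 for the averaged knockdown. The extra calls on knockdown came without sgKEAP1-2 replicate 1 under siNC (SQSTM1 -0.75, adjusted p = 0.0367) and without sgCtrl replicate 1 under siNC (WIPI1 -0.34, adjusted p = 0.0197). In the KEAP1 comparisons they were OPTN without sgCtrl replicate 1 under siTFEB/siTFE3 (-0.50, adjusted p = 0.0469, with sgKEAP1-1 under that siRNA), and in the averaged comparison OPTN in 5 of 24 fits and MAP1LC3B in 3. Interactions and the guide comparison stayed at 0. Why these counts moved was not tested. GABARAP, at 0 to 12 reads per library, was too sparse to test, and whether depth or the counting set this was not tested.

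Replicate numbers were shared between groups, and same-numbered libraries share a label prefix in the form of a day and month. The labels do not say what is dated, so the numbers were not taken as pairs by design. Over 60 same-numbered pairs the correlation of deviations from the group mean had a median of 0.05 (from -0.16 to 0.43), beside -0.02 for differently numbered pairs, and 20 pairs exceeded 0.1. Of 24 libraries, 15 correlated best with their own number, where each group held 4 numbers. By number, the median was 0.12 for number 1 and 0.04, 0.03 and 0.04 for numbers 2, 3 and 4. The 2 libraries that stand apart carry number 1, as do the low-reading sgCtrl libraries under both siRNAs. The replicate block raised all genes called on averaged knockdown from 260 to 380, in sgKEAP1-1 cells from 10 to 30 and in sgKEAP1-2 cells from 40 to 57. Under the block the members newly called were SQSTM1 on knockdown in sgKEAP1-1 cells (-0.69, adjusted p = 0.0283), WIPI1 on averaged knockdown (-0.29, adjusted p = 0.0214), WIPI1 with sgKEAP1-2 under siTFEB/siTFE3 (0.37, adjusted p = 0.0394), and, in the averaged KEAP1 comparison, OPTN (-0.30, adjusted p = 0.0334) and MAP1LC3B (0.24, adjusted p = 0.0246). It changed no other call of a member.

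Sign changes touched uncalled fold changes, which lay between -0.17 and 0.19 in the fit reported. With the replicate block these values were -0.00159 for NBR1 in the knockdown in sgKEAP1-1 cells. With library quality weights these values were -0.0202 for NBR1 in the knockdown in sgKEAP1-1 cells, -0.0088 for NBR1 in the averaged knockdown, -0.0286 for CALCOCO2 in the knockdown in sgCtrl cells, -0.11 for MAP1LC3B in the knockdown in sgKEAP1-1 cells, -0.0126 for GABARAPL1 in the knockdown in sgCtrl cells, 0.13 for GABARAPL2 in sgKEAP1-1 against sgCtrl under siNC, 0.0888 for GABARAPL2 in sgKEAP1-2 against sgCtrl under siTFEB/siTFE3, -0.0495 for GABARAPL2 in the knockdown in sgKEAP1-1 cells, 0.0117 for GABARAPL2 in the knockdown in sgKEAP1-2 cells, -0.14 for GABARAPL2 in the interaction for sgKEAP1-1. Without the 2 libraries that stand apart these values were -0.0222 for NBR1 in the knockdown in sgKEAP1-1 cells, -0.0166 for TAX1BP1 in the interaction for sgKEAP1-1, 0.0131 for CALCOCO2 in sgKEAP1-1 against sgCtrl under siNC, -0.17 for MAP1LC3B in the knockdown in sgKEAP1-1 cells, -0.0263 for GABARAPL1 in the interaction for sgKEAP1-2, 0.21 for GABARAPL2 in sgKEAP1-1 against sgCtrl under siNC, 0.17 for GABARAPL2 in sgKEAP1-2 against sgCtrl under siTFEB/siTFE3, -0.13 for GABARAPL2 in the knockdown in sgKEAP1-1 cells, 0.0776 for GABARAPL2 in the knockdown in sgKEAP1-2 cells, -0.22 for GABARAPL2 in the interaction for sgKEAP1-1. With edgeR's test these values were -0.00338 for CALCOCO2 in the knockdown in sgCtrl cells, -0.0133 for MAP1LC3B in the knockdown in sgKEAP1-1 cells, 0.0089 for GABARAPL2 in sgKEAP1-1 against sgCtrl under siNC, -0.0108 for GABARAPL2 in the interaction for sgKEAP1-1. With DESeq2 these values were -0.00195 for CALCOCO2 in the knockdown in sgCtrl cells, -0.0132 for MAP1LC3B in the knockdown in sgKEAP1-1 cells, 0.00998 for GABARAPL2 in sgKEAP1-1 against sgCtrl under siNC, -0.0128 for GABARAPL2 in the interaction for sgKEAP1-1. With library size alone these values were -0.00143 for GABARAPL1 in the interaction for sgKEAP1-2. Leaving out 1 library at a time also turned the sign of uncalled values; for the interaction for sgKEAP1-1 they ran from -0.25 to 0.0207 for SQSTM1, from -0.0341 to 0.18 for NBR1, from -0.0792 to 0.12 for TAX1BP1, from -0.15 to 0.22 for OPTN, from -0.0347 to 0.27 for CALCOCO2, from -0.21 to 0.13 for MAP1LC3B, from -0.12 to 0.37 for GABARAPL1, from -0.21 to 0.17 for GABARAPL2. For the interaction for sgKEAP1-2 they ran from -0.20 to 0.13 for SQSTM1, from -0.0428 to 0.31 for OPTN, from -0.15 to 0.35 for GABARAPL1. For the averaged interaction they ran from -0.20 to 0.0767 for SQSTM1, from -0.0944 to 0.27 for OPTN, from -0.00646 to 0.31 for CALCOCO2, from -0.13 to 0.36 for GABARAPL1, from -0.24 to 0.012 for GABARAPL2. For sgKEAP1-2 against sgCtrl under siNC they ran from -0.18 to 0.0241 for NBR1, from -0.0922 to 0.22 for CALCOCO2. For sgKEAP1-2 against sgCtrl under siTFEB/siTFE3 they ran from -0.00067 to 0.14 for NBR1, from -0.24 to 0.17 for GABARAPL2. For the knockdown in sgCtrl cells they ran from -0.18 to 0.0352 for NBR1, from -0.15 to 0.0492 for TAX1BP1, from -0.17 to 0.14 for CALCOCO2, from -0.11 to 0.22 for MAP1LC3B, from -0.21 to 0.28 for GABARAPL1. For the knockdown in sgKEAP1-1 cells they ran from -0.0365 to 0.0405 for NBR1, from -0.076 to 0.0171 for TAX1BP1, from -0.17 to 0.14 for MAP1LC3B, from -0.12 to 0.26 for GABARAPL2. For the knockdown in sgKEAP1-2 cells they ran from -0.000623 to 0.13 for NBR1, from -0.33 to 0.0775 for GABARAPL2. For the averaged knockdown they ran from -0.0254 to 0.045 for NBR1, from -0.0685 to 0.10 for GABARAPL2. For sgKEAP1-1 against sgCtrl under siNC they ran from -0.23 to 0.0779 for CALCOCO2, from -0.0298 to 0.31 for MAP1LC3B, from -0.18 to 0.21 for GABARAPL2. For sgKEAP1-1 against sgCtrl under siTFEB/siTFE3 they ran from -0.0256 to 0.077 for CALCOCO2, from -0.0532 to 0.0791 for GABARAPL2. For the averaged KEAP1 comparison they ran from -0.00619 to 0.14 for CALCOCO2, from -0.0247 to 0.0798 for GABARAPL2. For sgKEAP1-2 against sgKEAP1-1 they ran from -0.0416 to 0.21 for GABARAPL2, from -0.0453 to 0.0309 for WIPI1.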
